A study of Danio rerio with 3 samples.

Results

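Scales of zebrafish kept with benzo[c]phenanthrene (BcP) were set against control scales, across every probe set that carries 1 gene symbol. Of 15502 non-control probe sets on the array, 10795 met that rule, and they stand for 8793 genes. RNA was measured on 3 arrays, 1 for each group, and 2 of them enter this comparison. Scales in the BcP group had been held with BcP at 1 nM, a second group with its 3-hydroxy derivative 3-OHBcP at 1 nM, and the control group in the same L-15 medium. All 3 groups were kept for 6 h at 15 °C. Genotype, strain and age of the fish, the number of fish or scales behind each RNA, and whether the control medium held a solvent were not stated in the labels. With 1 array per group no difference below has a replicate check, and no test was made. Differences are log2 values of the BcP array minus the control array, so that a positive value is higher with BcP, and "lower" or "higher" describes these arrays alone.

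BcP is a polycyclic aromatic hydrocarbon with a fjord region, a deep recess in the outline of its fused rings. Many such compounds bind the aryl hydrocarbon receptor, which pairs with Arnt proteins and switches on cytochrome P450 genes, cyp1a first among them, as well as nqo1 and the receptor's own repressors. A fish scale is a thin plate of bone that carries bone-forming osteoblasts and bone-resorbing osteoclasts and is covered by epidermis. Osteoblasts lay down type I collagen under the control of Runx2 and Sp7, and osteoclasts dissolve bone with acid, Ctsk and tartrate-resistant acid phosphatase.

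Some genes typical of bone, osteoclasts and epidermis had high signal on all arrays, as the label of scale tissue implies. Type I collagen gene col1a2 stood at 12.50 on the BcP array, 12.70 on the 3-OHBcP array and 12.12 on the control array, on the log2 scale. The osteoclast protease gene ctsk was at 10.15 on all 3, and epidermal keratin gene krt5 at 12.82 on all 3. The osteoblast regulators sp7 (4.84 with BcP, 4.97 with 3-OHBcP, 4.78 in control scales) and runx2b (5.32, 5.28 and 4.93 in the same order) lay below the level used as a filter. That filter is log2 5.35, the median over all non-control probe sets of their mean over the arrays. The osteoclast marker gene csf1ra, at 4.47 on all 3 arrays, was below it as well. Where a gene has several probe sets, the one with the highest mean stands for it, and 5248 genes at or above the filter were kept.

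Most genes differed little between the BcP and control arrays. The differences of the 10795 probe sets had an SD of 0.156 and a median of 0, and 94.1% of them lay within 0.32 of 0, a ratio of 5 to 4. Unrounded, this limit is 0.3219. At least 0.32 higher with BcP were 332 probe sets (3.08%), and at least 0.32 lower were 308 (2.85%). At 1.5-fold, 14 were higher (0.13%) and 41 lower (0.38%). Among the kept genes, 37 (0.705%) were at least 1.5-fold apart, 31 (0.591%) lower with BcP and 6 (0.114%) higher. A 2-fold difference was reached by 4 genes, all lower (0.0762%), and by no gene on the higher side. At least 0.32 lower were 212 kept genes (4.04%), and at least 0.32 higher were 77 (1.47%). By any amount, 37.7% were higher, 37.1% lower and 25.2% exactly equal, the background for the counts of the gene lists in the deposited values. Equality to the last deposited digit was thus common. It is not read here as a measured lack of change, and its origin was not tested. After centring the arrays on their medians, 11 of 37 lists turned from mostly higher to mostly lower. Under quantile normalization 6 lists turned, and 3 with the trends of level and orientation removed, so such counts are given with their scaling where they turned. The background moved too. With centring, 1392 of the 5248 kept genes were higher and 3856 lower. After quantile normalization 3163 were higher and 2043 lower, and with the trends removed 3075 and 2173. Rescaled list counts are to be read against these.

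The balance of higher and lower varied with signal level. The probe sets were divided by level into 10 bins, with bin 1 the dimmest. In bin 4, 81 were at least 0.32 higher with BcP and 22 lower, and in bin 9, 7 were higher and 62 lower. The mean difference was 0.071 in bin 3 and -0.029 in bin 9. Probe set names carry the orientation of their source sequence, and this moved with the counts too. Above the filter, 28 of 2840 probe sets marked A were at least 1.5-fold lower and 2 higher, while of 3158 marked S, 9 were lower and 4 higher. What part level and orientation have in any single difference was not tested beyond removing both trends, after which 24 genes were lower and 6 higher at 1.5-fold.

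**Figure D1:**
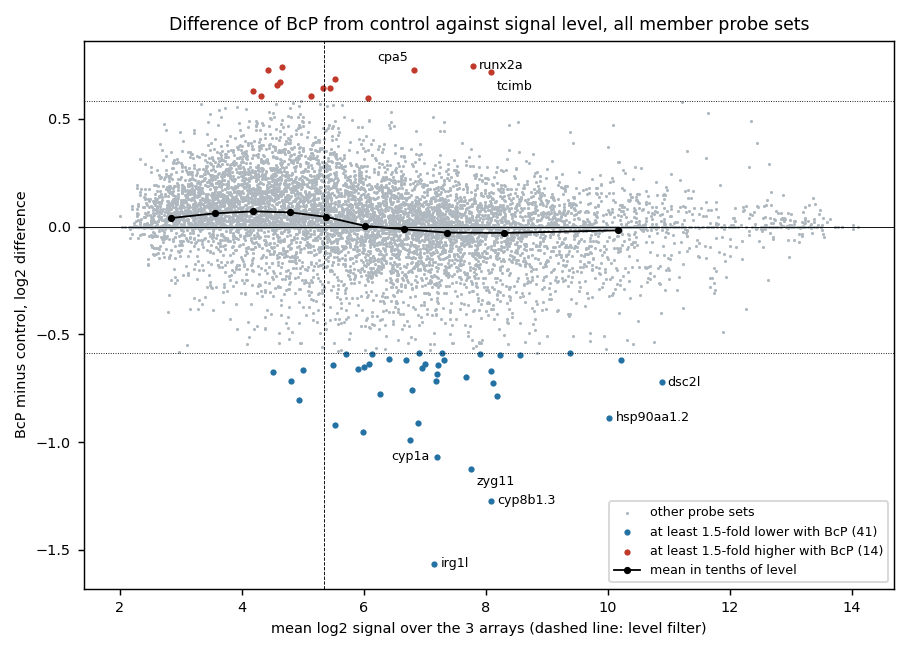
Log2 difference of BcP minus control (y axis) against mean log2 level over the 3 arrays (x axis), 1 point per probe set with 1 gene symbol, with the level filter dashed, the 1.5-fold limits dotted and the mean of each level bin in black. Most points lie near 0, the lowest kept gene is irg1l at -1.56, and the highest is runx2a at 0.75.

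The gene with the largest negative difference was irg1l, a relative of the mammalian immune-responsive gene for itaconate synthesis in macrophages. It stood at 6.20 with BcP, 7.50 with 3-OHBcP and 7.77 in control scales, a difference of -1.56. Next came cyp8b1.3, of a family that in mammals hydroxylates sterols at position 12 in bile acid synthesis, at 6.98 with BcP, 9.04 with 3-OHBcP and 8.25 in control scales (-1.27). The BcP array was thus the lowest of the 3 for both genes. The related gene cyp8b1.1 held 5.78 with BcP, 7.05 with 3-OHBcP and 6.39 in control scales (-0.61), and the control array lay between the others for both cyp8b1 genes. A RefSeq gene table of assembly GRCz12tu lists these cyp8b1 genes as neighbours, and probes of near-identical copies may share signal.

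Another P450 gene, cyp1a, the usual marker of aryl hydrocarbon receptor activity, was lower with BcP. Its 1 probe set read 6.62 on the BcP array, 7.31 on the 3-OHBcP array and 7.69 on the control array (-1.07), so the control array was the highest. The name of that probe set shares a cluster number with the probe sets of mpx, the myeloperoxidase of neutrophils, of which the best measured ran the other way (7.75 with BcP, 6.91 with 3-OHBcP, 7.26 in control scales, 0.48). The remaining gene past 2-fold was zyg11, named for a substrate adaptor of a cullin ubiquitin ligase, at 6.98 with BcP, 8.18 with 3-OHBcP and 8.10 in control scales (-1.12).

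Several of the other lower genes code for membrane, adhesion and junction proteins. Claudin gene cldnf, of the tight junction proteins, stood at 6.41 with BcP, 6.95 with 3-OHBcP and 7.32 in control scales (-0.91). Another claudin gene, cldn23.1, was at 9.93, 10.15 and 10.55 in the same order (-0.62). The desmosomal cadherin gene dsc2l, which holds epithelial cells together, was at 10.42 with BcP, 11.09 with 3-OHBcP and 11.14 in control scales (-0.72). In the main probe set of each of these 3 genes the BcP array was lowest and the control array highest. The second dsc2l probe set read 9.33 with BcP, 9.96 with 3-OHBcP and 9.86 in control scales, with the 3-OHBcP array highest. The guidance ligand gene efna5a (-0.67), the matrix protein gene tgfbi (-0.65), the heparan sulphate endosulfatase gene sulf1 (-0.64), the cationic amino acid transporter gene slc7a7 (-0.92) and the membrane protein gene tmem176l.4 (-0.72) were also at least 1.5-fold lower.

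Stress and signalling genes made up another group. The inducible cytosolic chaperone gene hsp90aa1.2 was at 9.31 with BcP, 10.57 with 3-OHBcP and 10.20 in control scales (-0.89). The small heat shock gene hspb8 stood at 5.61, 5.83 and 6.27 (-0.66), and the AP-1 gene fosl1b at 5.95, 6.13 and 6.73 (-0.78), with the arrays in the same order. The BcP array was lowest for all 3. Transcription factor gene sox4a was at 7.04 with BcP, 6.84 with 3-OHBcP and 7.73 in control scales (-0.68), so here the control array stood above both others. The Ral exchange factor gene rgl1 (-0.95), cyld2, named for a deubiquitinase (-0.78), the ubiquitin-conjugating enzyme gene ube2d1b (-0.70), the fish-specific tripartite motif gene ftr82 (-0.72), the growth factor gene igf2a (-0.59) and the spindle orientation gene gpsm2 (-0.59) were lower as well.

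The remaining lower genes past 1.5-fold were the microtubule plus-end gene slain2 (-0.76), uacab (-0.64), the lysophospholipid acyltransferase gene lpcat4 (-0.62), the helicase gene rad54l2 (-0.62), the geranylgeranyl diphosphate synthase gene ggps1 (-0.60), the mitochondrial adenylate kinase gene ak4 (-0.59), zgc:66427 (-0.59) and si:ch211-114c12.2 (-0.59). Across these 8 genes the BcP array held the lowest of the 3 levels, and the control level lay between 6.95 for rad54l2 and 9.61 for si:ch211-114c12.2.

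On the higher side, the gene with the largest difference was annotated runx2a, a master regulator of osteoblasts, at 8.08 with BcP, 7.95 with 3-OHBcP and 7.33 in control scales (0.75). That identity carries a limit. The probe set has the same source sequence as one annotated to the type I collagen gene col1a1a, which read 11.76 with BcP, 11.95 with 3-OHBcP and 11.24 in control scales (0.53). The second runx2a probe set, from another sequence, read 5.85 with BcP, 5.85 with 3-OHBcP and 5.71 in control scales (0.15). The 1.5-fold difference of runx2a therefore rests on 1 probe set that shares its source with a collagen probe set.

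Of the other 5 higher genes, cpa5, a carboxypeptidase known as a mast cell marker in zebrafish, stood at 7.46 with BcP, 6.26 with 3-OHBcP and 6.73 in control scales (0.72). Only the BcP array was above the control for cpa5. Regulator gene tcimb was at 8.33 with BcP, 8.32 with 3-OHBcP and 7.61 in control scales (0.72), where both exposed groups stood above the control. The secreted glycoprotein gene reln (5.85, 5.59 and 5.16 in the same order, 0.69), the zinc finger gene rlf (5.79, 5.39 and 5.15, 0.64) and the Integrator subunit gene ints9 (6.33, 6.14 and 5.73, 0.60) lay close to the level filter. For reln, rlf and slc7a7, 1 of the BcP and control values was itself below the filter.

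**Figure D2:**
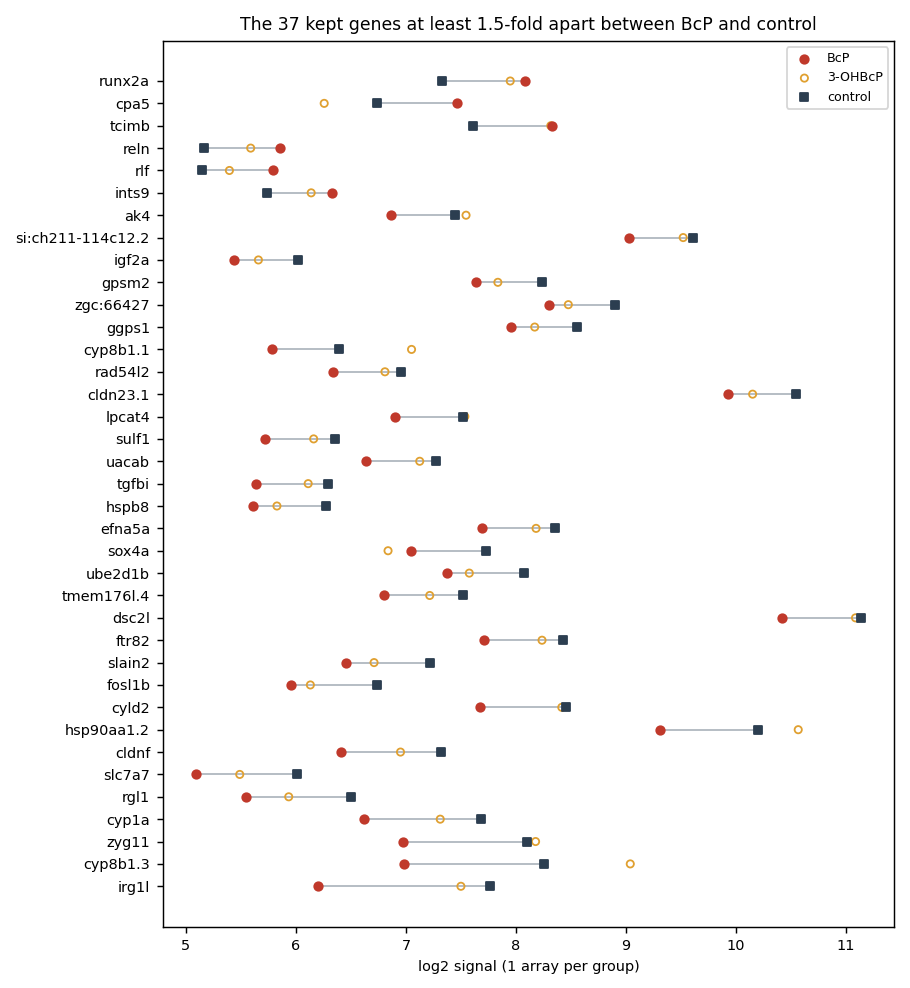
Log2 level (x axis) of the 37 kept genes at least 1.5-fold apart, 1 row per gene, with 1 point each for BcP, 3-OHBcP and control. The 31 lower genes have the BcP point left of the control point, irg1l by 1.56, and the 6 higher genes have it to the right.

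Because replicates are lacking, genes measured by several probe sets give the nearest check on a single value, although their probe sets share the same RNA. Of the 37 genes at least 1.5-fold apart, 26 have 1 probe set. The other 11 have 13 further probe sets, of which 8 lay on the same side, 3 were equal on both arrays and 2 lay on the other side. The dissenting probe sets were those of efna5a (0.45) and sulf1 (0.34), both opposite to the lower values given above. For zgc:66427 and rlf the further probe set was at 0. The 1.5-fold differences of these 4 genes were thus not shown by their other probe sets. By the plain mean over all probe sets, 8 of the 11 genes came short of 1.5-fold, namely efna5a (-0.07), sulf1 (-0.15), zgc:66427 (-0.30), rlf (0.32), cyp8b1.1 (-0.33), runx2a (0.45), reln (0.46) and ggps1 (-0.49). The genes dsc2l, hsp90aa1.2 and rgl1 stayed past it.

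Over 517 genes with at least 2 probe sets, all above the filter, 67 had a probe set past 0.32. In 5 of these, every probe set was at least 0.32 lower, in 0 every one was at least 0.32 higher, and in 0 did 2 probe sets pass 0.32 on opposite sides. The unrounded limit is 0.3219, so the smaller differences of ftr83, rer1 and col1a2, rounded to 0.32 below, fall short of it. Gene efna5a, with probe sets above the filter at -0.67 and 0.45, is not among the 517, since another of its probe sets lay below the filter. For 444 genes with exactly 2 such probe sets, the gap between their differences had an SD of 0.182, against an SD of 0.164 for a single difference. The correlation across these genes was 0.386, where genes are not independent and both probe sets share the arrays. Gaps of at least 0.32 occurred in 41 of these genes. The gap between probe sets of a gene was thus about as wide as the spread of single differences.

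Genes with several probe sets, all above the filter and differing on 1 side, were ranked by the smallest of their differences. This ranks by size, not by how closely the probe sets match. Of the 12 ranked highest, 10 were lower. Hsp90 gene hsp90aa1.2 differed by -0.89 and -0.54 in its probe sets, pmp22b, named for a peripheral myelin protein, by -0.54 and -0.53, and dsc2l by -0.72 and -0.53. For pmp22b the levels were 7.62 with BcP, 7.87 with 3-OHBcP and 8.16 in control scales in the first probe set, and 7.20, 7.42 and 7.74 in the second. The order of the 3 arrays was the same in both. G protein regulator gene rgs2 (-0.49 and -0.42), the oxysterol-binding protein gene osbpl7 (-0.34 and -0.64), ftr83 (-0.54 and -0.32), the Golgi retrieval receptor gene rer1 (-0.38 and -0.32), the mitochondrial cochaperone gene grpel2 (-0.36 and -0.31) and the glutamine synthetase gene glulb (-0.44 and -0.28) followed. Glula, the second glutamine synthetase gene, singled out after its values were seen, was at -0.56.

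The 2 higher genes among the 12 ranked by their smallest difference were col1a2 (0.39 and 0.32) and runx3 (0.48 and 0.30), a relative of runx2a. The main probe set of runx3 read 10.39 with BcP, 10.06 with 3-OHBcP and 10.09 in control scales, and its second read 8.84, 8.41 and 8.35. Both placed the BcP array above the other arrays, which lay close to each other.

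A further 18 probe sets were at least 1.5-fold apart without standing for a kept gene, and they are named here after their values were seen. Of these, 12 lay below the level filter, 8 of them higher with BcP and 4 lower. The higher ones were the lipid droplet gene fitm2 (0.74, but 0 in its brightest probe set), tmem230b (0.73), racgap1 (0.67), oprd1a (0.65), fam110b (0.64), prrc2b (0.63), cemip (0.61) and fabp1b.1 (0.60), and the lower ones trpt1 (-0.80), prr15la (-0.72), slc6a11a (-0.67) and thbs1b (-0.66). The 6 above the filter were all lower, and for strbp (-0.99), fuca2 (-0.65) and rca2.1 (-0.64) no other probe set of the gene was past 0.32. Those of osbpl7 (-0.64) and ggps1 (-0.59) were the second measurement of a gene already described. The desmosomal cadherin gene dsg2.1 had 1 probe set at -0.59 and others at -0.24 and 0.

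Genes around the aryl hydrocarbon receptor were mostly lower with BcP. Of 12 kept genes of this list, 8 were lower, 2 higher and 2 equal, with 3 lower and 1 higher past 0.32 and a median of -0.055, against a median of 0 over all kept genes. After cyp1a came the P450 gene cyp1c1, at 5.41 with BcP, 5.35 with 3-OHBcP and 5.99 in control scales (-0.58). Its other probe sets, below the filter, differed by 0 and 0.16. The quinone reductase gene nqo1 stood at 8.77, 8.92 and 9.12 in the same order (-0.35), and tiparp, a target that restrains the receptor, at 9.73, 10.06 and 9.99 (-0.26). The receptor gene ahr2 itself was at 7.87 with BcP, 7.90 with 3-OHBcP and 7.95 in control scales (-0.08), and its partner gene arnt2 at 5.89, 5.92 and 5.49 (0.39), with 0 in a dimmer probe set. Below the filter, ahr1a differed by 0.12, and cyp1d1, another P450 gene of the family, by 0.23. Hence cyp1a, cyp1c1 and nqo1 were all lower in their main probe sets. The genes cyp1b1, cyp1c2, ahr1b, ahrra, ahrrb and arnt were not analysed here.

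Other enzymes that handle foreign and signalling compounds showed 10 lower, 3 higher and 5 equal among 18 kept genes. Vitamin D hydroxylase gene cyp24a1 stood at 5.55 with BcP, 6.38 with 3-OHBcP and 6.13 in control scales (-0.57), but its other probe set differed by 0.15. The retinoic acid hydroxylase gene cyp26a1 was higher, by 0.28.

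Bone matrix genes were more often higher in the deposited values. Of 27 kept genes of osteoblasts and bone matrix, 13 were higher, 5 lower and 9 equal, 2 of them past 0.32, both higher, and the list median was 0, as over all kept genes. With each array centred on its median, 11 of the 27 were higher and 16 lower, where all kept genes counted 1392 higher and 3856 lower. The count of the list thus depends on the scaling, as does that background. The list members past 0.32 are runx2a and col1a2. The type X collagen gene col10a1b was at 12.77 with BcP, 12.70 with 3-OHBcP and 12.48 in control scales (0.29), col10a1a at 11.97, 11.78 and 11.78 (0.19), and col1a1a in its main probe set at 12.38, 12.47 and 12.11 (0.28). For col1a1a and col1a2, 3-OHBcP was above BcP and the control was lowest. The matrix protein genes sparc (0.17) and spp1 (0.15) were above the control and alpl, the mineralising phosphatase gene, was close to it (0.02). Lysyl oxidase relative loxl2b (-0.17) and the collagen chaperone gene serpinh1b (-0.16) were the farthest on the lower side. Enamelin gene enam, singled out after its values were seen, stood at 12.61 with BcP, 12.28 with 3-OHBcP and 12.12 in control scales (0.49).

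Osteoclast genes lay close to the control. Of 14 kept genes, 5 were higher, 7 lower and 2 equal, or 9 higher and 5 lower after quantile normalization, with 1 past 0.32. That gene was mmp14a, a membrane-bound matrix metalloprotease, at 8.29 with BcP, 8.67 with 3-OHBcP and 8.74 in control scales (-0.45), but its second probe set above the filter differed by 0.03. The tartrate-resistant acid phosphatase gene acp5a was at 7.25, 7.14 and 7.13 (0.13), and ctsk at 10.15 on every array. The proteases mmp9 (0.10) and mmp13a (0.07) were likewise near the control. Of 14 matrix proteases and their inhibitors, 7 were higher and 6 lower, where timp2b (-0.54) and adam17a (-0.49) were the lowest and serpinb1l3 (0.36) the highest. Less RNA per cell and fewer cells of a type cannot be told apart in such bulk samples, here or for any list below.

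Cell junction genes were lower more often than higher, by a margin that varied with the scaling. Of 39 kept genes, 25 were lower, 5 higher and 9 equal. After quantile normalization 21 were lower and 17 higher, where all kept genes counted 2043 lower and 3163 higher. With the trends removed 27 were lower and 12 higher, against 2173 and 3075 over all kept genes. Past 0.32, 7 of the junction genes were lower and 0 higher. Plakophilin gene pkp1b, a desmosomal plaque protein, was at 10.15 with BcP, 10.39 with 3-OHBcP and 10.69 in control scales (-0.54). Among 10 kept desmosome genes, grouped after values were seen, 9 were lower and 1 equal, with a median of -0.078, which stayed between -0.124 and -0.077 under the 4 other scalings. Of 16 kept claudin genes, 9 were lower, 4 higher and 3 equal, or 8 lower and 7 higher after quantile normalization, and the lowest were cldnf (-0.91), cldn23.1 (-0.62), cldna (-0.46) and cldne (-0.40). The GRCz12tu table lists cldne, cldnf and cldna next to each other. Among 15 kept genes grouped as keratins, 5 were lower, 3 higher and 7 equal, none past 0.32. The equal ones include icn, icn2 and krtcap2, which are not keratins. Epidermal markers icn (13.83), krt4 (12.83) and krt5 (12.82) read the same on all arrays, where 25.2% of kept genes were exactly equal between BcP and control. The wider list of epidermal genes had 17 lower, 8 higher and 14 equal of 39, with 1 lower past 0.32. Of 19 fibroblast and connective tissue genes, 9 were lower and 4 higher, but 7 were lower and 12 higher after quantile normalization, and 8 lower and 11 higher with the trends removed. The basement membrane gene lama5 (-0.49) was lower, and col17a1b differed by -0.27 in 1 probe set and 0 in the other, while thy1, a surface protein of fibroblasts and other cells, was at 11.62 with BcP, 10.97 with 3-OHBcP and 11.04 in control scales (0.58).

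**Figure D3:**
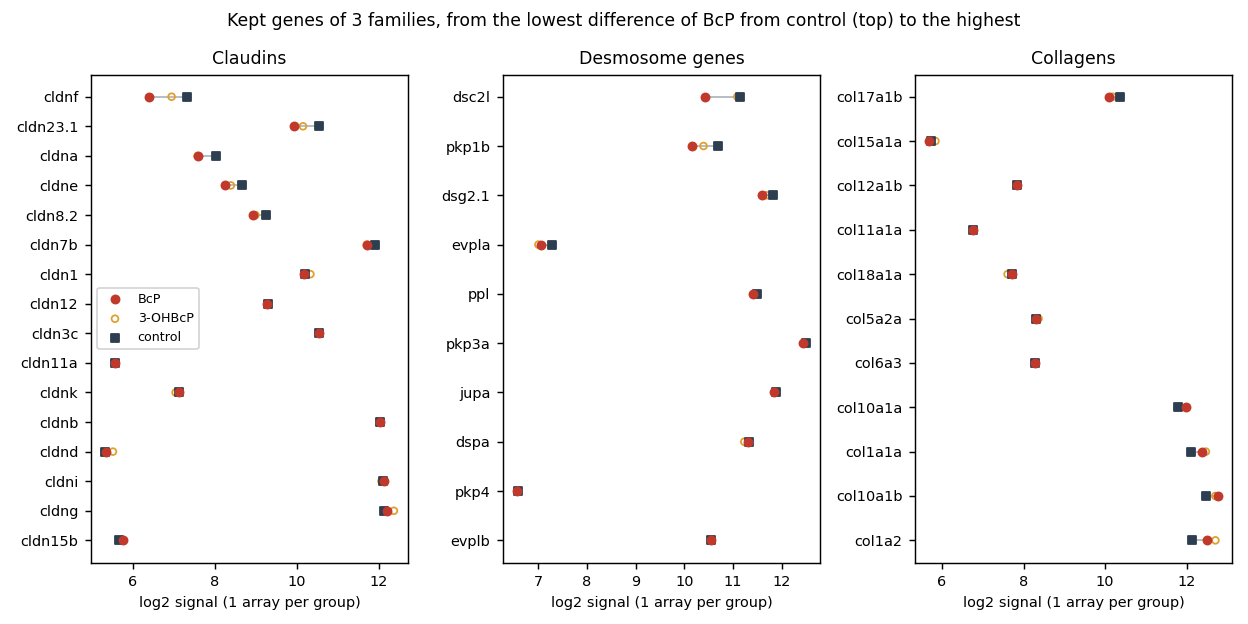
Log2 level (x axis) of the kept claudin, desmosome and collagen genes (1 panel each, 1 row per gene, lowest difference on top), with 1 point each for BcP, 3-OHBcP and control. In 9 of 10 desmosome genes the BcP point lies left of the control point, and in col1a2 it lies to the right by 0.39.

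Inflammatory genes were more often lower, while cpa5 and mpx, of mast cells and neutrophils, were higher. In the inflammation list of 37 kept genes, 24 were lower, 7 higher and 6 equal, with 6 lower and 1 higher past 0.32 and a median of -0.062. Besides irg1l, the chemokine receptor gene cxcr4b (-0.48) and timp2b (-0.54) were the lowest, and mpx (0.48), the chemokine gene ccl19a.1 (0.27) and the lysozyme gene lyz (0.22) the highest. For lyz the 3-OHBcP and control values, both 5.27, were below the level filter, so it was kept only through its BcP value. Its higher value is thus tied to its being kept. All 7 kept genes of the mast cell and neutrophil enzyme list, lyz among them, were higher, with a median of 0.179. With the arrays centred, 6 of them stayed higher. Past 0.32 were cpa5 and mpx, described above, while mmp9 (0.10), mmp13a (0.07) and ela2 (0.01) lay near the control. A second mpx probe set lay on the same side, at 6.64 with BcP, 6.45 with 3-OHBcP and 6.18 in control scales (0.46), whereas its other probe sets read between 2.52 and 3.32. Of 17 leukocyte markers 10 were higher and 4 lower, with coro1a above the control (0.26, and 0.06 in its second probe set) and the macrophage receptor gene marco below it (-0.19). The 3-OHBcP array lay below the control for cpa5 and the main mpx probe set.

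Oxidative and heat stress genes past 0.32 were all lower with BcP. The oxidative stress list had 15 lower, 8 higher and 3 equal among 26, with 4 lower and 0 higher past 0.32. Glutathione synthesis gene gclm (-0.50), glutathione reductase gene gsr (-0.41) and nqo1 were the farthest. In the heat shock list of 37, 18 were lower and 16 higher, or 16 lower and 21 higher after quantile normalization, and 6 lower genes passed 0.32, among them hsp70.3 (-0.49). The cytosolic chaperonin, the ring complex that folds actin and tubulin, was higher for 7 of 8 subunit genes, cct4 by 0.26 and cct3 by 0.19, with a median of 0.118, or 0.072 with the arrays centred. The list thus held hsp90aa1.2, hspb8 and hsp70.3 below the control and the chaperonin subunits at or above it. Among 20 genes of endoplasmic reticulum stress, 0 reached 0.32.

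The p53 and apoptosis list had 22 lower, 7 higher and 6 equal genes among 35, 4 of them past 0.32, all lower. Its farthest members were gadd45ga (-0.41), a growth arrest gene, plk2b (-0.41) and gadd45bb (-0.40). The 6 gadd45-named genes, grouped after values were seen, had a median of -0.225 with 0 higher in the deposited values. They include gadd45gip1 (-0.001), which is named for an interacting protein and is not itself a gadd45 gene. After quantile normalization, and with the trends removed, 1 of the 6 was higher and 5 lower. Immediate early genes counted 23 lower and 15 higher among 41, but 21 lower and 20 higher with the trends removed. Past 0.32 were 5 lower ones in the deposited values, led by fosl1b, rgs2 and maff (-0.36). On the higher side were dusp2 (0.25) and klf11a (0.23).

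Steroid and lipid genes included several lower members. The glucocorticoid and clock list had 13 lower, 7 higher and 7 equal among 27, or 13 lower and 14 higher with the trends removed. Glucocorticoid-induced gene fkbp5 was at 10.28 with BcP, 11.17 with 3-OHBcP and 10.81 in control scales (-0.54), so the exposed groups lay on either side of the control. The clock genes rorab (-0.36) and bhlhe41 (-0.33) were lower and clocka (0.46, from a control value of 5.32 below the filter) higher. Of 19 cholesterol genes, 13 were lower and 4 higher, with a median of -0.093, led by ggps1, the lysosomal cholesterol transporter gene npc1 (-0.43) and cyp51 (-0.27, with its other probe sets between -0.37 and 0.16). In fatty acid metabolism, hadhaa (-0.57), a subunit of the mitochondrial trifunctional protein, the lipid droplet gene plin3 (-0.40) and acsl4a (-0.39) were the lowest of 18, of which 9 were lower and 4 higher, or 9 each after quantile normalization. Nuclear receptor genes had 6 higher and 4 lower of 13, or 6 and 7 with the arrays centred. The estrogen receptor gene esr2a was at 5.94 with BcP, 5.76 with 3-OHBcP and 5.58 in control scales (0.36), while esr1 and esr2b lay below the filter.

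Among cell signalling genes, Notch and ephrin members were split. The receptor gene notch3 was at 7.54 with BcP, 6.85 with 3-OHBcP and 7.03 in control scales (0.51). The ligase gene mib1 (0.50), which activates Notch ligands, and the ephrin gene efna2a (0.46) were also higher. The ligand gene jag1a (-0.46) and the main probe set of efna5a (-0.67) were lower, but the other efna5a probe sets differed by 0.45 and 0. For efna2a the control value, 5.09, was itself below the level filter. Of 20 such genes, 11 were higher and 6 lower, but 7 higher and 13 lower with the arrays centred, with 3 higher and 2 lower past 0.32. Of 36 genes of other developmental signals, 20 were higher and 9 lower, but 12 higher and 24 lower with the arrays centred. After tgfbi, tgfb1a (-0.43) and tgfbr2b (-0.28, and 0.02 in its second probe set) were the lowest, and id2b (0.47, and 0.17 in its second), a target of bone morphogenetic proteins, was the highest. Transporters of amino acids and glucose had 11 lower and 2 higher of 19, led by slc7a7, slc7a3a (-0.41) and slc43a2a (-0.30). Of 28 ion transport genes 8 were higher and 14 lower, or 15 higher and 13 lower after quantile normalization, the calcium pump gene atp2b4 (0.32) being the highest. Lysosome genes had 9 higher and 14 lower of 30, or 17 higher and 13 lower after quantile normalization. At the ends were the endolysosomal channel gene mcoln2 (0.56, from a control value of 5.05 below the filter) and npc1.

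Genes of basic metabolism and translation differed by small amounts. In oxidative phosphorylation 44 of 73 genes were higher and 7 lower, with 0 past 0.32 and a median of 0.018. Mitochondrial ribosome genes had 36 higher and 5 lower of 52, with a median of 0.051, among them mrpl14 (0.36) and mrpl37 (0.35). The mitochondrial ribosome median was of the size of the gap between array medians, 5.37 for BcP and 5.32 for control. The oxidative phosphorylation median was smaller than that gap. Genes of the cytosolic ribosome had 40 higher and 11 lower of 72 with a median of 0.002, and those of the proteasome 25 higher and 13 lower of 46 with the same median. After quantile normalization the cytosolic ribosome counted 24 higher and 38 lower, where all kept genes counted 3163 higher and 2043 lower. With the trends removed it counted 36 each. In ribosome biogenesis, 28 were higher and 15 lower of 51, with bop1 the highest (0.49, its 3 dimmer probe sets between 0 and 0.20) and rrs1 (-0.31) the lowest. Centring each array put oxidative phosphorylation at -0.028 and the mitochondrial ribosome at 0.005, and the glycolysis and citrate cycle list, 26 higher and 6 lower of 41 and a median of 0.019 as deposited, at -0.027. With centring the counts turned to 11 higher and 61 lower for the cytosolic ribosome, 32 and 41 for oxidative phosphorylation, 16 and 25 for glycolysis, 16 and 30 for the proteasome and 23 and 28 for ribosome biogenesis. Centring lowers every difference by the same amount, so genes equal on both arrays all became lower. Over all kept genes it gave 1392 higher and 3856 lower. The counts turned by centring are thus partly set by equal genes and do not decide a direction. Quantile normalization and trend removal left more higher than lower in each of these lists except the cytosolic ribosome. Oxidative phosphorylation had 63 higher and 9 lower, then 57 and 16, and glycolysis 35 and 6, then 33 and 8. The mitochondrial ribosome had 46 and 6 in both, where all kept genes counted 3163 and 2043, then 3075 and 2173. As the counts depend on the scaling, no direction is given for these lists. Cell cycle genes had 18 higher, 14 lower and 14 equal of 46, or 15 higher and 31 lower with centring, with 0 past 0.32.

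**Figure D4:**
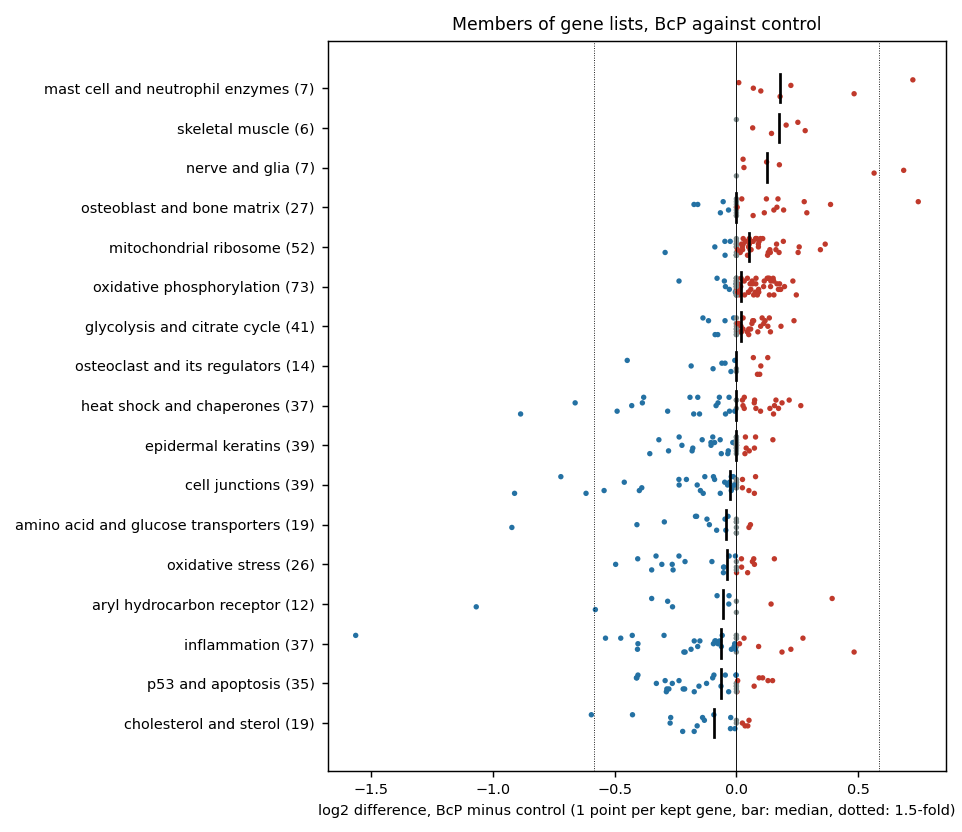
Log2 difference of BcP minus control (x axis) for the kept genes of each gene list (rows), 1 point per gene with the list median marked. Medians of the lists shown lie between -0.093 for cholesterol genes and 0.179 for mast cell and neutrophil enzymes, and dotted lines mark 1.5-fold.

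Markers of other cell types differed as well. All 5 muscle markers on the array were higher with BcP, but 1 lay above the filter, actc1b at 6.35 with BcP, 6.23 with 3-OHBcP and 6.10 in control scales. Dim probe sets were in general more often higher, 577 against 139 lower in level bin 2 and 613 against 155 in bin 3. The longer muscle list had 5 of 6 kept genes higher. The haemoglobin gene hbaa1 stood at 10.24, 9.90 and 9.87 (0.37), while the erythrocyte markers alas2 (0) and cahz (0.02), below the filter, lay at or near the control. Both neutrophil markers, mpx and lyz, were higher, but lyz passed the filter only through its BcP value. Of 7 kept nerve and glia genes, 6 were higher, or 4 higher and 3 lower with the arrays centred. Gene sox2 stood at 5.84 with BcP, 5.38 with 3-OHBcP and 5.27 in control scales (0.57), with the control value below the filter. For gap43 the difference was 0.18. The myelin gene mbpa (-0.16) and the glial regulator gene sox10 (0), both below the filter, were not higher. Of 7 kept pigment cell genes 4 were lower and 0 higher, while the pigment markers dct (0.20) and gch2 (0.46), below the filter, were higher. Of 3 kept endothelial genes 2 were higher and 1 lower, or 1 and 2 with the arrays centred or the trends removed. The defining endothelial markers fli1 (0.043) and kdrl (-0.317) lay below the filter. All 7 osteoblast markers were above the control, with a median of 0.28, but sp7 and runx2b lay below the filter. The wider list of 27 kept osteoblast and bone matrix genes had a median of 0, with 13 higher, 5 lower and 9 equal. Of 7 epidermal markers 3 were lower, 1 higher and 3 equal. Their part in the differences given above was not tested.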

How the data were processed

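Zebrafish scale RNA was hybridised to 3 Affymetrix Zebrafish Genome arrays, 1 per group. For every probe set and array the authors deposited 1 value, read here as log2 signal from its range, and per the submitters' processing notes it came from Affymetrix Expression Console. The sources used here give neither its version nor the summarization and normalization. Per the labels' protocols, 500 ng of RNA with an integrity number above 8.5 was used after DNase I treatment for 15 min.

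The values were used as deposited, and BcP minus control was taken per probe set. Symbols came from the platform annotation, updated through the GRCz12tu gene table (10711 of 10795 found), which gave names and neighbours only. Probe sets with several symbols (135) or none (4572) and 115 control probe sets were set aside. Near-identical gene copies may share probes. No sequences are shown, since none were among the tables used.

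Genes could be named if kept and at least 1.5-fold apart, if among the 12 with several probe sets on 1 side by the largest margin (1 of which is not reported here), if among the 3 farthest on each side of 1 of 37 lists, or if in a set of 39 receptor, bone and estrogen receptor genes, of which 26 had a probe set. Members and lists were chosen with earlier results of these data known. The procedure was tested on simulated data with large planted differences and little noise, which checks the counting and not how reliable the differences are. The number of arrays limits the precision. Alternatives were array centring, quantile normalization, an offset of 32 on the linear scale, other level filters, means over probe sets, plain probe sets only, and, added after seeing the data, removal of the trends with level and orientation. Python 3.11.15, pandas 2.3.3, numpy 2.4.6 and matplotlib 3.10.9 were used.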

Additional observations from a re-analysis of the deposited data

Results flagged for a closer look

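Probe sets without a gene symbol, which enter no comparison above, also differed. Of 4572, 14 were at least 1.5-fold lower with BcP (0.306%) and 7 at least 1.5-fold higher. The highest read 7.20 with BcP, 4.71 with 3-OHBcP and 6.20 in control scales, and the lowest 4.73, 5.45 and 5.53 in the same order. The 18 probe sets for hybridisation spike-ins, which are added at set amounts, differed by a median of 0.286 for BcP minus control on the log2 scale, with 17 higher, 0 lower and a range of 0 to 0.589. The 24 poly-A spike-in probe sets had a median of 0.022, with 14 higher and 3 lower. The gap between the 3' and 5' probe sets of GAPDH was 2.15 with BcP, 2.03 with 3-OHBcP and 2.45 in control scales, and that of actin was -0.35, -0.70 and -0.47 in the same order. Whether these bear on any gene was not tested.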

How the results depend on the processing

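Without replicates, a value was taken to move when it changed by more than the SD across kept genes, 0.156. An offset of 32 on the linear scale left 3 kept genes at least 1.5-fold higher and 15 lower, against 6 and 31 as deposited, and 2 at least 2-fold lower against 4, since it shrinks low values. Over all probe sets it left 3 higher and 16 lower, against 14 and 41. Centring each array gave 47 lower kept genes and 67 lower probe sets. A level filter at the 75th percentile left 2 higher and 19 lower genes, no filter gave 12 higher, and means over probe sets 3 higher. Without a level filter the erythrocyte median was 0.012, against 0.237. Of the 37 genes past 1.5-fold, 19 came short of it with the offset, 7 with the trends removed, 5 with quantile normalization, 5 with means over probe sets and 1 with centring. With means over probe sets, 3 more (cyp8b1.1, reln and sulf1) left the kept genes, their mean level being below the filter. No gene past 1.5-fold changed sign. The balance of higher and lower members turned in 11 of 37 lists with centring, 6 with quantile normalization and 3 with the trends removed. Of 37 list medians, 9 changed sign with centring, which moved the median of all kept genes to -0.046, 3 with quantile normalization and 4 with the trends removed. No paired analysis was possible because each group has 1 array.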
